A study of Mus musculus with 16 samples.

Results

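The 10 genes described here encode the enzymes that carry glycolysis from glucose 6-phosphate and fructose 1,6-bisphosphate down to phosphoenolpyruvate, the substrate of pyruvate kinase. They are Gpi1, Aldoa, Aldoc, Tpi1, Gapdh, Pgk1, Pgam1, Pgam2, Eno1 and Eno3, chosen by name, and all 10 were found among the 55492 genes measured. Phosphofructokinase, which acts between Gpi1 and the aldolases, is treated with the upstream steps. RNA was sequenced from the left ventricles of 16 male C57BL/6 mice aged 8 to 12 weeks, 1 library per mouse. Pyruvate kinase M (PKM) exists as the isoforms PKM1 and PKM2, and the mice carried either floxed Pkm alleles (PKM2fl/fl, the controls) or lacked PKM2 in all cells (PKM2-/-). The deletion of the PKM2-specific exon had been made in the germline with a CMV promoter-driven Cre, which was afterwards bred out, so it was not limited to the heart. Each genotype had 2 hearts at baseline without surgery, 3 hearts taken 3 days after sham surgery and 3 hearts taken 3 days after myocardial infarction (MI), which was caused by permanent ligation of the left anterior descending coronary artery. Sham surgery was the same operation with no ligation.

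Glycolysis splits a six-carbon sugar into a pair of three-carbon sugars and then recovers energy from them as ATP. Gpi1, glucose 6-phosphate isomerase, works above the split, aldolase makes the split, and Tpi1, triose phosphate isomerase, interconverts its products. Gapdh (glyceraldehyde 3-phosphate dehydrogenase) makes NADH, Pgk1 (phosphoglycerate kinase) makes ATP, and phosphoglycerate mutase and enolase rearrange the product into phosphoenolpyruvate. Several of these steps have isoforms from separate genes. Eno3 encodes the beta subunit and Pgam2 the M subunit, both typical of striated muscle, while Eno1 (alpha) and Pgam1 (B) are expressed in most tissues. Aldoa is the aldolase of muscle and many other tissues, and Aldoc is best known from the brain. The healthy adult heart relies mainly on fatty acid oxidation.

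All 10 genes were located on GRCm38.p6, the build of the deposited table. The muscle isoforms Pgam2 (chr11:5801637-5803796, reverse strand, 3 exons) and Eno3 (chr11:70653125-70662513, forward strand, 12 exons) lie on chromosome 11, as does Aldoc. Pgam1 (chr19:41911871-41918665, 4 exons) and Eno1 (chr4:150236708-150248879, 12 exons) are both on the forward strand. Since the members of each of these isoform pairs moved in opposite directions after MI, the 250 bases before their start sites are shown, as given by RefSeq on GRCm38.p6. Eno1 has 3 start sites in RefSeq, of which the second is printed. The Eno3 start site given by RefSeq's promoter lies within the annotated span of the gene, downstream of its first base. Capitals mark the core of the hypoxia-inducible factor (HIF) response element, ACGTG or GCGTG on either strand, and a MEF2 match. HIF drives glycolytic genes when oxygen is low, and MEF2 is a transcription factor of muscle genes.
Pgam1, chr19:41911621-41911870, forward strand: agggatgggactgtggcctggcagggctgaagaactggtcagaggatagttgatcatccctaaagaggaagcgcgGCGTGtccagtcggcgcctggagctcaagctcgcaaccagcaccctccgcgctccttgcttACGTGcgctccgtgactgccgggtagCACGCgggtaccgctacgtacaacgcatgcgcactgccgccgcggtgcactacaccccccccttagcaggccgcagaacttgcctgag
Pgam2, chr11:5803797-5804046, reverse strand: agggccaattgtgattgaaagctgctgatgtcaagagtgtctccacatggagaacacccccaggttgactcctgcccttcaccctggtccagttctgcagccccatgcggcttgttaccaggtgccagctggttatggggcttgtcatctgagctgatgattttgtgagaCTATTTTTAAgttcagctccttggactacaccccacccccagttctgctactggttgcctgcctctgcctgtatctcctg
Eno1, chr4:150236947-150237196, forward strand: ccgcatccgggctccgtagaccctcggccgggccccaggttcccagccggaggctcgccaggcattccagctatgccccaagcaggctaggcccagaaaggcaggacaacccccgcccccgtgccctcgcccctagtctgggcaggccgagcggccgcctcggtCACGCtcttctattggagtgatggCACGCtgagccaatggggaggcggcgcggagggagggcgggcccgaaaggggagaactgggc
Eno3, chr11:70656926-70657175, forward strand: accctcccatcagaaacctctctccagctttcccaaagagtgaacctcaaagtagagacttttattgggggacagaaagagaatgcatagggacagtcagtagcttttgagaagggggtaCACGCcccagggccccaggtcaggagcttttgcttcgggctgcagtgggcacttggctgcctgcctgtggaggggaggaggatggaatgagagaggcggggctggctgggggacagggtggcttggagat

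The printed upstream sequences of each pair differed in base composition. Pgam1 had 22 CG dinucleotides and 64.0% GC in its 250 bases, against 1 CG and 53.2% GC for Pgam2. The printed Eno1 sequence had 21 CG and 71.2% GC, and Eno3 had 3 CG and 57.2% GC. Upstream of the first Eno1 start site there were 9 CG, 55.6% GC and 1 GCGTG core, and upstream of the third 19 CG, 69.2% GC and 2 GCGTG cores. The GC difference between Eno1 and Eno3 thus depended on the start site. Over 32851 RefSeq promoters of the same length, the median was 6 CG and 52.4% GC. Pgam1 held 1 ACGTG and 2 GCGTG cores, the printed Eno1 sequence 2 GCGTG, Eno3 1 GCGTG, and Pgam2 0 of either. The MEF2 match was found upstream of Pgam2 alone among the 15 start sites of the 10 genes, from 80 to 71 bases before the start, and 1.69% of all promoters had one. Pgam2 also held 5 E boxes (CANNTG), a motif present in 66.2% of promoters. A HIF core of either form was found at 11 of the 15 start sites, some of which are overlapping windows of 1 gene, and in 38.6% of all promoters. These matches describe letters in a window and are not measured binding sites.

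Values are normalized counts, the reads of a gene divided by the size factor of its library, and depth ranged from 20623769 to 71855101 reads per library. Loci related to ribosomal RNA took between 15.8% and 46.0% of the reads. In hearts without MI, this share was 15.8% to 27.8% in PKM2fl/fl and 28.5% to 46.0% in PKM2-/-, with no overlap. In MI hearts, the ranges overlapped, with 19.8% to 44.5% in PKM2fl/fl and 15.98% to 34.2% in PKM2-/-. The share thus went with genotype among hearts without MI, and the main tests did not adjust for it. The whole Pkm gene had 7779 to 9602 normalized counts in the 5 PKM2fl/fl hearts without MI and 11710 to 14242 in the 5 PKM2-/- hearts without MI. In the MI hearts, the ranges overlapped, with 9576 to 12076 in PKM2fl/fl and 10120 to 16113 in PKM2-/- hearts. These reads cover both isoforms, so they do not check the deletion. The tissue label was checked against 8 cardiomyocyte markers (such as Myh6, the main heavy chain of the adult mouse heart). Their summed level was 969017 to 1220400 in the 10 hearts without MI, and 5 skeletal muscle markers together reached at most 81.99 in these hearts. Pkm in itself did not pass the test in either MI comparison (adjusted p = 0.113 in PKM2fl/fl and 0.704 in PKM2-/-, limma). Between the genotypes, Pkm was not called by limma at baseline, after sham or after MI either.

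**Figure D1:**
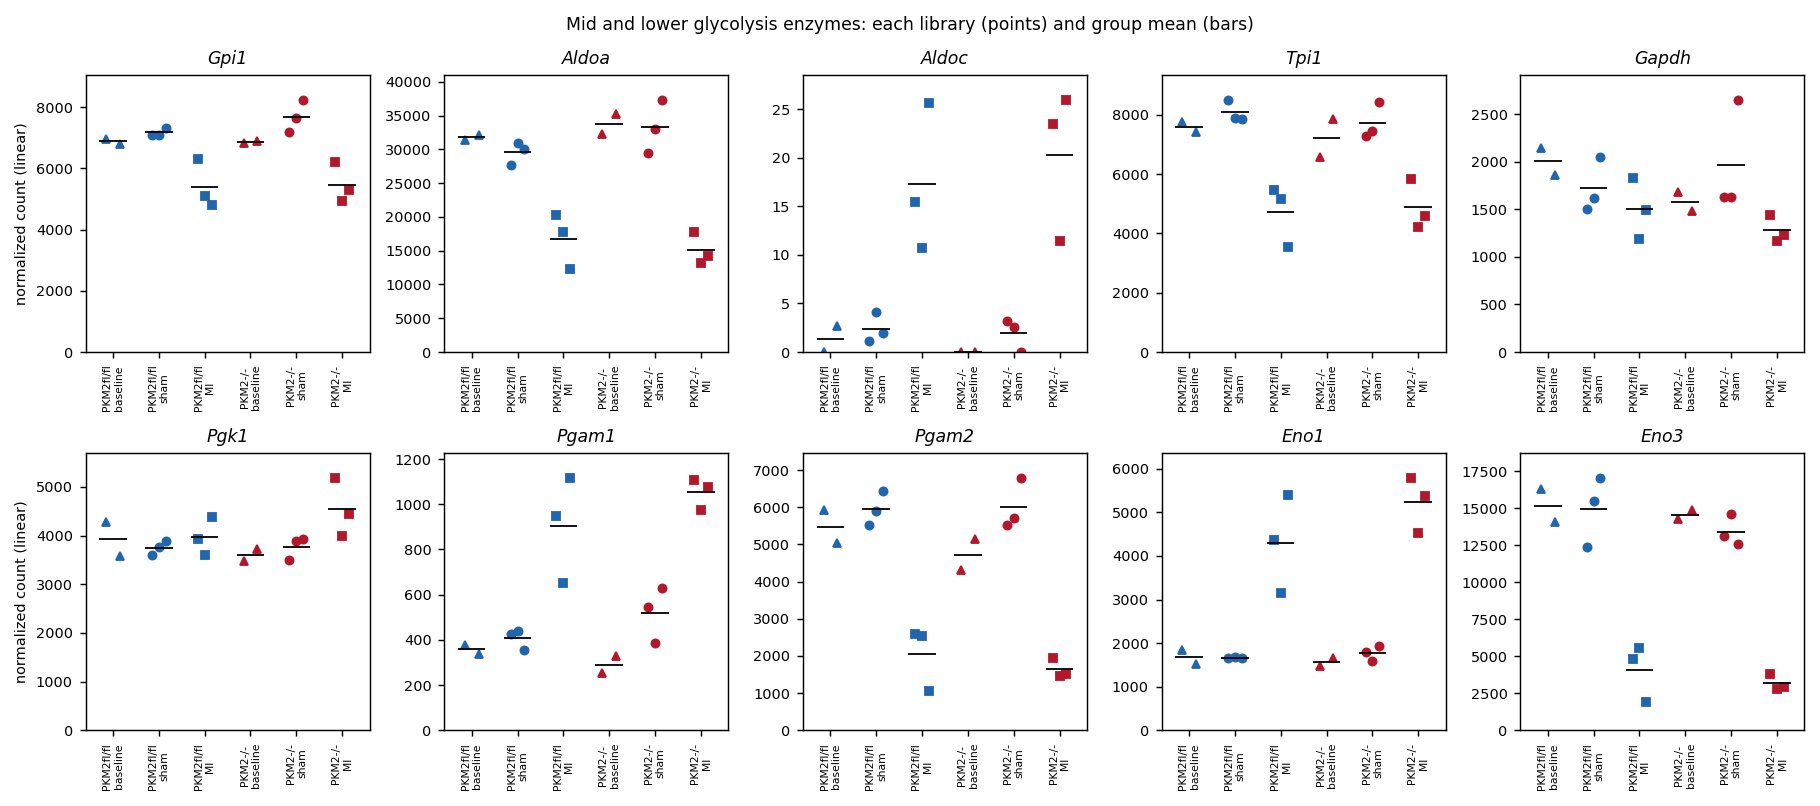
Normalized counts (linear axes from 0) of the 10 enzymes in each of the 16 libraries, with PKM2fl/fl in blue and PKM2-/- in red; triangles are baseline, circles sham and squares MI hearts, and bars are group means. Eno3 and Pgam2 of all 6 MI hearts lie below, and Eno1 and Pgam1 above, every baseline and sham heart.

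To see which enzymes were most abundant, levels were compared per kilobase of the canonical transcript. In the 10 hearts without MI, Aldoa was highest with a median of 21057 normalized counts per kb (range 18364 to 24715). Eno3 followed with a median of 8292 per kb (7095 to 9788) and Pgam2 with 6459 per kb (4943 to 7802), and the ranges of these overlapped. Tpi1 came next at a median of 4866 per kb (4099 to 5296), also overlapping Pgam2. Gpi1 (median 2444 per kb) and Pgk1 (2055 per kb) formed a lower pair with overlapping ranges, and Gapdh lay below them at 1165 per kb (1041 to 1869). The rank of Gapdh is uncertain, because reads that also match its many near-identical copies may be counted elsewhere or not at all. The broadly expressed isoforms were at the lower end, Eno1 at 725 per kb (641 to 843) and Pgam1 at 212 per kb (140 to 349), with no overlap between them or with Gapdh. Aldoc was lowest, with a median of 0.56 per kb and at most 4 reads in any of these libraries.

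This order was different in the 6 MI hearts. Aldoa was still highest, with a median of 10587 normalized counts per kb (8115 to 13460), and Tpi1 came second with 3035 per kb (2204 to 3636). Pgk1 (median 2294 per kb), Eno1 (2160 per kb), Pgam2 (1997 per kb), Eno3 (1945 per kb) and Gpi1 (1788 per kb) then lay close together, and the ranges of neighbours in this order overlapped. Gapdh had 944 per kb, Pgam1 570 per kb (361 to 621) and Aldoc 7.0 per kb. The levels per kb rest on 1 transcript length per gene, take no account of stretches shared with other genes or copies, and are a description.

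The first question was how the enzymes responded to MI in control hearts. Of the 9 members that reached a mean of 10 normalized counts, 7 were called at an adjusted p under 0.05 in PKM2fl/fl hearts after MI against sham, 2 higher and 5 lower. Across all 20576 genes tested, 50.1% were called, 24.8% higher and 25.3% lower, so a change after MI was common among all genes. In PKM2-/- hearts, 8 of the 9 members were called, 2 higher and 6 lower, against 56.8% of all genes, 28.7% higher and 28.1% lower. With at least a 2-fold change, 4 members were called in PKM2fl/fl and 5 in PKM2-/- hearts, where 23.5% and 28.8% of all genes were. The median log2 fold change of the 9 members was -0.42 in PKM2fl/fl and -0.58 in PKM2-/- hearts, while that of all genes tested was -0.0025 and 0.010. Both members that rose were the broadly expressed isoforms Eno1 and Pgam1, in each genotype.

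Enolase, which forms phosphoenolpyruvate, had isoforms that moved apart after MI. Eno3 had 12352, 15510 and 17042 normalized counts in the 3 PKM2fl/fl sham hearts and 4841, 5575 and 1885 in the 3 PKM2fl/fl MI hearts. The PKM2-/- hearts had 13099, 14620 and 12562 after sham and 3820, 2798 and 2952 after MI. Each MI heart was below each sham heart, and the third PKM2fl/fl MI heart was the lowest of all. Eno3 fell by 2.00 on the log2 scale in PKM2fl/fl (SE 0.29, adjusted p = 4.32e-05, limma) and by 2.08 in PKM2-/- hearts (SE 0.29, adjusted p = 1.99e-05, limma). Among all genes tested, 1.38% in PKM2fl/fl and 3.10% in PKM2-/- hearts had a lower log2 fold change.

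Eno1, the alpha enolase, moved the other way. It had 1667, 1683 and 1656 normalized counts in the PKM2fl/fl sham hearts and 4373, 3144 and 5393 after MI. PKM2-/- hearts had 1788, 1583 and 1933 after sham and 5787, 4526 and 5381 after MI. The groups did not overlap in either genotype, and the third PKM2fl/fl MI heart, lowest for Eno3, was the highest PKM2fl/fl heart for Eno1. The log2 fold change was 1.33 in PKM2fl/fl (SE 0.16, adjusted p = 8.90e-06, limma) and 1.56 in PKM2-/- hearts (SE 0.16, adjusted p = 1.40e-06, limma), or 2.52-fold and 2.95-fold. The reads of 3 near-identical copies of Eno1 amounted to at most 2.28% of the reads of Eno1 and these copies together. This does not tell how many Eno1 reads were lost, because reads that match several places may not have been counted.

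Phosphoglycerate mutase, the step before enolase, had the same arrangement. Pgam2 had 5512, 5893 and 6428 normalized counts after sham and 2600, 2530 and 1059 after MI in PKM2fl/fl hearts. Pgam2 of PKM2-/- hearts was at 5513, 5725 and 6788 normalized counts after sham and 1958, 1473 and 1518 after MI. It fell by 1.63 on the log2 scale in PKM2fl/fl (SE 0.25, adjusted p = 7.82e-05, limma) and by 1.87 in PKM2-/- hearts (SE 0.25, adjusted p = 1.59e-05, limma), with no overlap between sham and MI. The Pgam2 gene shares 486 bases with Dbnl, an adapter protein gene with which it overlaps, and the library kit as named does not mark strand, so reads in this stretch cannot be assigned to one of them with certainty. Dbnl rose after MI (log2 fold change 0.46, adjusted p = 0.00380 in PKM2fl/fl and 0.59, adjusted p = 0.000513 in PKM2-/-, limma).

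Pgam1 rose. It had 426, 439 and 357 normalized counts after sham and 946, 649 and 1116 after MI in PKM2fl/fl hearts. The PKM2-/- hearts had 547, 385 and 628 after sham and 1109, 974 and 1078 after MI. All MI hearts were above all sham hearts of either genotype, with the second PKM2fl/fl MI heart only slightly higher than the third PKM2-/- sham heart. The log2 fold change was 1.12 in PKM2fl/fl (SE 0.20, adjusted p = 0.000237, limma) and 1.04 in PKM2-/- hearts (SE 0.20, adjusted p = 0.000321, limma). An annotated copy of Pgam1 is identical to it over 765 bases, so some Pgam1 reads may also have gone uncounted, as for Eno1.

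**Figure D2:**
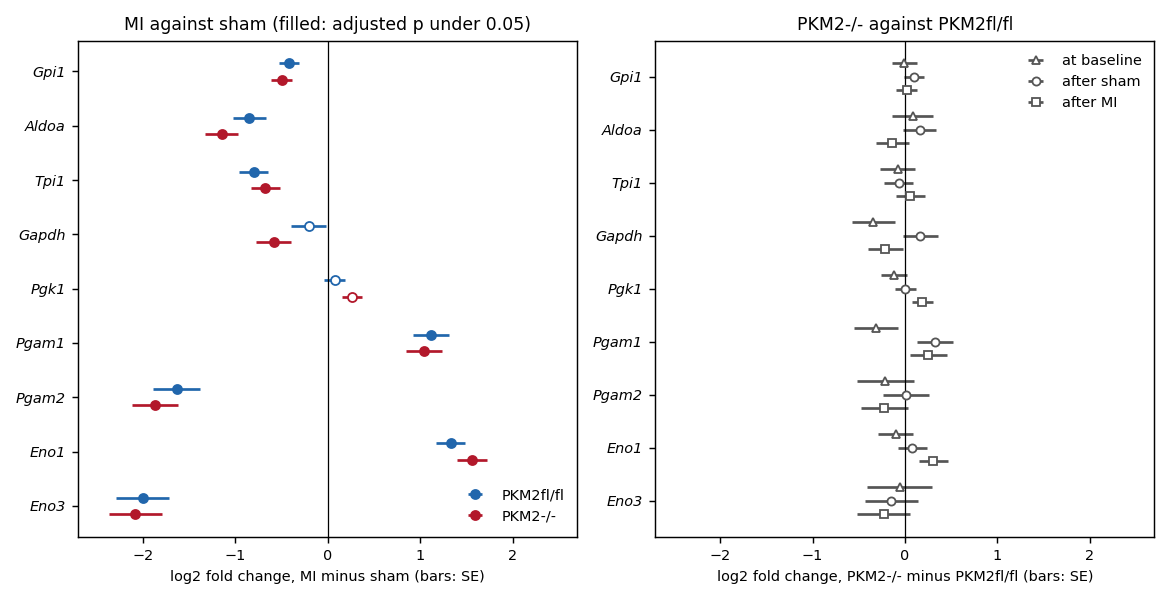
Log2 fold changes of the 9 tested members with their standard errors, for MI against sham in PKM2fl/fl (blue) and PKM2-/- (red) on the left and for PKM2-/- against PKM2fl/fl at baseline, after sham and after MI on the right; filled symbols passed an adjusted p of 0.05. Eno1 and Pgam1 lie above 1 and Eno3 and Pgam2 below -1.6 in both genotypes on the left, and no symbol on the right is filled.

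The opposite changes can be read within each library as a share, which does not depend on the size factor. Per kb, Eno3 made up 92.1% ± 1.2 (SD, n = 3) of Eno1 and Eno3 after sham and 53.6% ± 19.9 (SD, n = 3) after MI in PKM2fl/fl hearts. In PKM2-/- hearts, it was 90.9% ± 1.4 (SD, n = 3) after sham and 44.4% ± 2.3 (SD, n = 3) after MI. The single PKM2fl/fl MI hearts had 59.3%, 70.0% and 31.5%, a wider spread than the 46.5%, 44.9% and 41.9% of the PKM2-/- MI hearts. Pgam2 made up 96.8% ± 0.54 (SD, n = 3) of both mutases per kb after sham and 80.1% ± 12.1 (SD, n = 3) after MI in PKM2fl/fl, and 96.0% ± 0.75 (SD, n = 3) and 76.2% ± 2.1 (SD, n = 3) in PKM2-/- hearts. Per kb, Pgam2 thus remained the larger of both in all 6 MI hearts, with a lowest share of 66.2%. These shares divide by the whole transcript length, although 486 bases of Pgam2 are shared with Dbnl and parts of Eno1 and Pgam1 with near-identical copies. By reads, without the division by length, it was 48.7% in the third PKM2fl/fl MI heart, so that Pgam1 was the larger there. Per kb, the Eno3 share was below that of Eno1 in 4 of the 6 MI hearts.

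**Figure D3:**
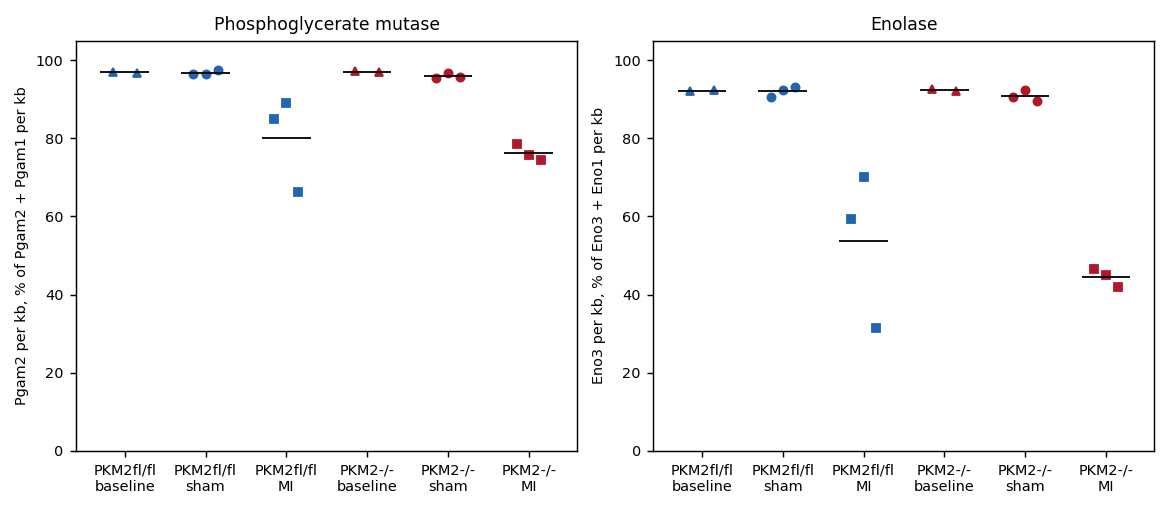
Share of the muscle isoform per kb in each library, Pgam2 of both phosphoglycerate mutases on the left and Eno3 of both enolases on the right, in percent from 0; bars are group means. Baseline and sham hearts lie between 89.5% and 97.4%, and the MI hearts between 66.2% and 89.0% for Pgam2 and between 31.5% and 70.0% for Eno3.

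Tested on the reads themselves, the Eno3 share was lower after MI than after sham by a mean of 46.4 percentage points over both genotypes, with means of 42.6% and 89.1% over 6 hearts each. An exact permutation test within genotype (two-sided, 12 hearts) gave p = 0.005, the smallest p that its 400 arrangements allow, and an adjusted p of 0.010 over 6 share tests. The Pgam2 share was lower by a mean of 28.8 percentage points (64.0% against 92.8%, exact permutation p = 0.005, adjusted p = 0.010, 12 hearts). Adding both isoforms, summed enolase per kb was 9325 ± 1373 (SD, n = 3) after sham and 4232 ± 693 (SD, n = 3) after MI in PKM2fl/fl hearts. The PKM2-/- sums were 8483 ± 538 (SD, n = 3) and 4114 ± 572 (SD, n = 3). Summed phosphoglycerate mutase per kb was 7059 ± 509 (SD, n = 3) and 2874 ± 906 (SD, n = 3) in PKM2fl/fl, and 7196 ± 831 (SD, n = 3) and 2482 ± 338 (SD, n = 3) in PKM2-/- hearts. The rise of Eno1 and Pgam1 was therefore smaller, per kb of whole transcript, than the fall of the muscle isoforms.

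Aldolase differed from these pairs because its minor isoform stayed rare. Aldoa had 27748, 30989 and 30105 normalized counts after sham and 20338, 17773 and 12262 after MI in PKM2fl/fl hearts. The PKM2-/- values of Aldoa were 29438, 32973 and 37344 after sham and 17748, 13242 and 14246 after MI. Sham and MI hearts did not overlap. Aldoa fell by 0.85 on the log2 scale in PKM2fl/fl (SE 0.18, adjusted p = 0.00104, limma) and by 1.15 in PKM2-/- hearts (SE 0.18, adjusted p = 6.18e-05, limma).

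Aldoc did not reach the mean of 10 normalized counts and was not among the genes tested. It was at 0 reads in 4 libraries, which allows up to 3 reads, or 2.35 to 5.50 normalized counts, and this limit covers counting error only. The sham hearts had 1.2, 4.1 and 2.0 normalized counts in PKM2fl/fl and 3.2, 2.6 and 0 in PKM2-/- hearts. After MI, the PKM2fl/fl hearts had 15.5, 10.7 and 25.6 and the PKM2-/- hearts 23.5, 11.4 and 26.0, all above each heart without MI. These values rest on 10 to 29 reads per MI library. As a share of aldolase reads, Aldoc rose from a mean of 0.00714% after sham to 0.124% after MI (exact permutation test, two-sided, 12 hearts, p = 0.005, adjusted p = 0.010).

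The single-gene steps gave smaller differences. Tpi1 had 8511, 7890 and 7877 normalized counts after sham and 5457, 5164 and 3542 after MI in PKM2fl/fl hearts, and 7302, 7464 and 8427 against 5842, 4215 and 4589 in PKM2-/- hearts. It fell by 0.80 on the log2 scale in PKM2fl/fl (SE 0.15, adjusted p = 0.000530, limma) and by 0.67 in PKM2-/- hearts (SE 0.15, adjusted p = 0.00166, limma). Sham and MI hearts did not overlap, and the lowest value was again that of the third PKM2fl/fl MI heart. Gpi1 had 7106, 7082 and 7337 normalized counts after sham and 6302, 5098 and 4810 after MI in PKM2fl/fl hearts. Its PKM2-/- values were 7205, 7632 and 8244 after sham and 6198, 4928 and 5284 after MI. It fell by 0.42 in PKM2fl/fl (SE 0.11, adjusted p = 0.00602, limma) and by 0.50 in PKM2-/- hearts (SE 0.11, adjusted p = 0.00153, limma), both on the log2 scale.

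Pgk1, the first ATP-making step, was the member closest to its sham level. It had 3596, 3767 and 3893 normalized counts after sham and 3922, 3602 and 4380 after MI in PKM2fl/fl hearts, and the groups overlapped (log2 fold change 0.08, SE 0.11, adjusted p = 0.595, limma). In PKM2-/- hearts, it had 3495, 3880 and 3928 after sham and 5182, 3992 and 4436 after MI. The MI hearts were all above the sham hearts there, but the difference did not pass the test (log2 fold change 0.26, SE 0.11, adjusted p = 0.0580, limma). With DESeq2 on the recovered reads it did (log2 fold change 0.27, adjusted p = 0.0423), and without the second PKM2-/- MI heart limma gave 0.35 (adjusted p = 0.0248).

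Gapdh is the least certain of the values, because the genome holds many near-identical copies of it. Of 84 such copies, 77 had a row of their own and together took 30.1% to 43.6% of the normalized counts of Gapdh and copies in a library. Reads that match several of these places may also have gone uncounted, since the multi-mapping setting is not given. A protein-coding gene that overlaps Gapdh and is identical to it over 300 bases is not among these copies. Reads in that stretch cannot be assigned with certainty either. Gapdh had 1508, 1616 and 2047 normalized counts after sham and 1829, 1188 and 1499 after MI in PKM2fl/fl hearts, and these overlapped (log2 fold change -0.20, SE 0.19, adjusted p = 0.393, limma). In PKM2-/- hearts, it had 1629, 1626 and 2654 after sham and 1445, 1168 and 1235 after MI, a fall of 0.58 on the log2 scale (SE 0.19, adjusted p = 0.0162, limma). Without the third PKM2-/- sham heart, the highest of these, the log2 fold change was -0.35 (adjusted p = 0.10, limma), and without the second PKM2-/- MI heart it was -0.52 (adjusted p = 0.0599, limma). When Gapdh was summed with its copies, a choice made after seeing the data, the values were -0.30 (adjusted p = 0.123, limma) in PKM2fl/fl and -0.61 (adjusted p = 0.00366, limma) in PKM2-/- hearts.

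How firmly these changes hold depended on the scaling for some of the members. Scaled to total reads, which moved the median of all genes by -0.18 in PKM2fl/fl and 0.52 in PKM2-/- hearts, 6 and 5 members were called, against 29.2% and 44.3% of all genes (11.5% higher and 17.7% lower in PKM2fl/fl, 35.1% higher and 9.19% lower in PKM2-/-). Under that scaling, Gpi1 was no longer called in PKM2fl/fl hearts, and Gpi1, Aldoa, Tpi1 and Gapdh were no longer called in PKM2-/- hearts, where Gpi1 turned to 0.016 and Pgk1 was called at 0.77 (adjusted p = 0.0331, limma). Eno1, Pgam1, Eno3 and Pgam2 kept their direction and were called in both genotypes under each of the 15 other settings tried.

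The cell type markers moved in the same hearts. The cardiomyocyte markers fell after MI in 8 of 8 cases in PKM2-/- and 7 of 8 in PKM2fl/fl hearts (the exception was Actc1, cardiac actin, adjusted p = 0.0578, limma), with medians of -2.20 and -1.77 on the log2 scale. Their summed normalized count was 202552 to 471165 in PKM2fl/fl and 210244 to 288061 in PKM2-/- MI hearts. Of 8 leukocyte markers, 6 rose in each genotype, and their summed level was 5196 to 10636 after sham and 20806 to 36690 after MI over both genotypes. Of 6 fibroblast markers, 5 rose, among them collagens such as Col1a1, and 1 fell (Dcn), with sums of 24171 to 45424 after sham and 141808 to 196246 after MI. In bulk tissue, fewer cells of a type and less RNA per cell cannot be told apart, and the part of cell composition in the enzyme values was not tested. Skeletal muscle markers had a sum of 72.4 to 131.3 in the MI hearts, against 36.7 to 82.0 in the hearts without MI.

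**Figure D4:**
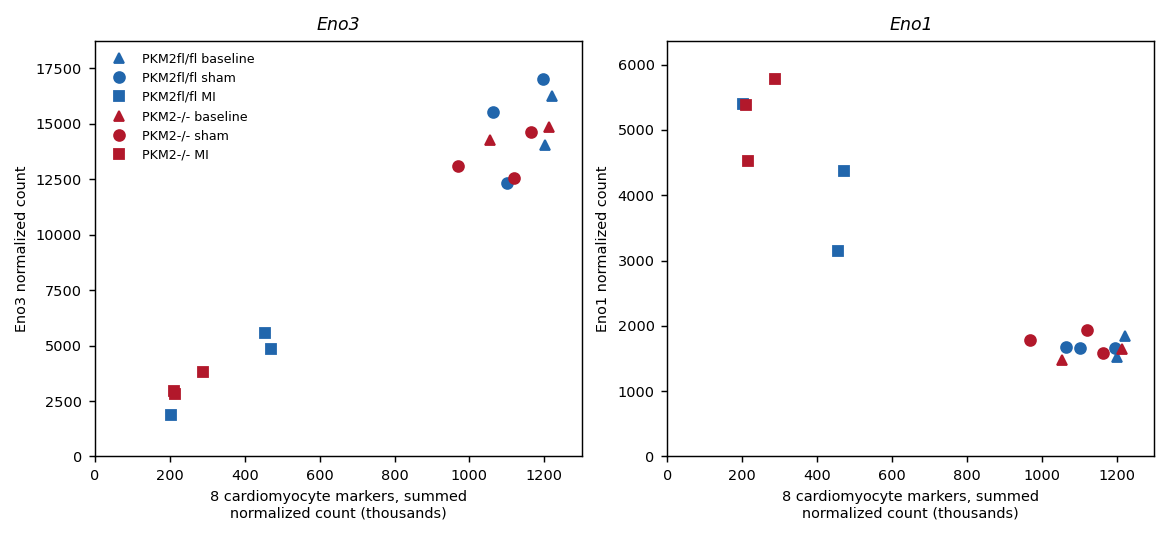
Normalized counts of Eno3 (left) and Eno1 (right) against the summed normalized counts of 8 cardiomyocyte markers in each of the 16 libraries, all on linear axes from 0; colours and symbols mark the groups named in the key. The hearts form 2 separate sets, MI hearts at sums of 202552 to 471165 and the others at 969017 or more.

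The hearts fell into separate MI and non-MI sets on this axis, so no correlation over all of them was computed. Within the 3 PKM2fl/fl MI hearts, the third stood apart, with a cardiomyocyte sum of 202552 against 471165 and 455287 in the others. Its Eno3, Pgam2, Aldoa, Tpi1 and Gpi1 values were the lowest of the 3, and its Eno1, Pgam1, Aldoc and Pgk1 values the highest.

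The other genes of glucose use also divided in direction within each list. Of 16 genes of the upstream steps (glucose uptake, hexokinases and phosphofructokinases), 15 were tested. In PKM2fl/fl hearts 5 rose and 7 fell, where 24.8% of all genes were called higher and 25.3% lower. In PKM2-/- hearts 6 rose and 8 fell, where 28.7% of all genes were called higher and 28.1% lower. Slc2a1, the glucose transporter GLUT1, rose by a log2 fold change of 1.54 in PKM2fl/fl and 1.70 in PKM2-/- hearts (adjusted p = 1.79e-05 and 4.83e-06, limma). Hk3, a hexokinase known from leukocytes, rose by 2.78 and 3.04 (adjusted p = 1.15e-05 and 3.26e-06, limma). Pfkfb2, the heart form of the enzyme that makes the phosphofructokinase activator fructose 2,6-bisphosphate, fell by 1.46 and 1.86 on the log2 scale (adjusted p = 1.34e-05 and 1.03e-06, limma).

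Below enolase, 8 of 10 genes of the pyruvate and lactate end were tested, and 1 rose and 5 fell in each genotype. Of all genes, 24.8% were called higher and 25.3% lower in PKM2fl/fl, and 28.7% and 28.1% in PKM2-/- hearts. Slc16a3, which encodes the lactate exporter MCT4, rose by a log2 fold change of 2.52 in PKM2fl/fl and 2.97 in PKM2-/- hearts (adjusted p = 7.24e-06 and 1.10e-06, limma). Ldhb, the heart-type subunit of lactate dehydrogenase, fell by 2.07 and 2.31 on the log2 scale (adjusted p = 1.10e-05 and 2.64e-06, limma). Mpc1, a subunit of the mitochondrial pyruvate carrier, fell by 1.36 and 1.53 on the log2 scale (adjusted p = 9.25e-06 and 2.12e-06, limma). Of 10 other isoforms and side enzymes, 9 were tested, with 1 higher and 4 lower in PKM2fl/fl and 2 higher and 4 lower in PKM2-/- hearts. The calls in this list were near the share of all genes called, 50.1% in PKM2fl/fl and 56.8% in PKM2-/- hearts. Adpgk, an ADP-dependent glucokinase, rose by a log2 fold change of 0.69 and 0.88 (adjusted p = 0.000134 and 1.06e-05, limma), and Tigar, a fructose bisphosphatase, fell by 1.23 and 1.45 on the log2 scale (adjusted p = 0.000174 and 2.85e-05, limma).

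The next question was whether loss of PKM2 changed the enzymes upstream of it. At baseline, 0 of 9 members were called between PKM2-/- and PKM2fl/fl hearts by limma, with 0 at an unadjusted p under 0.05, and 0.00972% of all genes were called. Their log2 fold changes lay between -0.34 and 0.08. After sham, 0 members were called (0 at an unadjusted p under 0.05), again with 0.00972% of all genes, and the log2 fold changes lay between -0.15 and 0.33. After MI, 0 members were called (0 at an unadjusted p under 0.05), against 0.967% of all genes, with log2 fold changes between -0.23 and 0.31. DESeq2 and edgeR on the recovered reads also called 0 members in each of these 3 comparisons. Over all genes, DESeq2 called 0.0826% at baseline, 1.39% after sham and 5.16% after MI, and edgeR 0.00486%, 0.00972% and 0.71%. The largest standard error of a member here was 0.35. A call needs a difference of several standard errors, so differences well above that size could also have gone undetected. The values do not show that the genotypes were alike. At baseline and after sham, the genotypes also differed in the share of reads from loci related to ribosomal RNA, as given above.

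The comparison after MI turned on 1 heart. Without the third PKM2fl/fl MI heart, 3 of the 9 members were called, and 11.0% of all genes. Eno3 and Pgam2 were then lower in PKM2-/- hearts (log2 fold change -0.72, adjusted p = 0.00750, and -0.65, adjusted p = 0.00700, limma) and Eno1 higher (0.49, adjusted p = 0.0392, limma). With all 6 MI hearts, the same genes had log2 fold changes of -0.23 (adjusted p = 0.735), -0.22 (adjusted p = 0.699) and 0.31 (adjusted p = 0.340) by limma. Nothing in the labels sets this heart apart from the other PKM2fl/fl MI hearts, and its cardiomyocyte marker sum is given above.

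The isoform shares were compared between genotypes in the same way. Averaged over the 3 treatments, the Eno3 share of reads was 3.63 percentage points lower in PKM2-/- hearts (exact permutation test within treatment, two-sided, 16 hearts, p = 0.338, adjusted p = 0.479), and the Pgam2 share 2.48 points lower (p = 0.399, adjusted p = 0.479, same exact test). Without the third PKM2fl/fl MI heart, these differences (PKM2-/- minus PKM2fl/fl) were -7.23 and -5.57 percentage points, each with an adjusted p of 0.026 in the exact permutation test. The Aldoc share differed by 0.00426 percentage points (exact permutation p = 0.813, adjusted p = 0.813, 16 hearts).

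The response to MI was then compared between the genotypes as a difference of differences. By limma, 0 of 9 members and 0% of all genes were called, with 0 members and 1703 genes at an unadjusted p under 0.05. The differences in log2 fold change lay between -0.38 for Gapdh and 0.23 for Eno1. DESeq2 called 52 genes and edgeR 0, in both cases with 0 members, and 0 members were called without any single heart in turn. Without the third PKM2fl/fl MI heart, 2.35% of all genes were called in this comparison by limma.

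Surgery itself was examined by comparing sham with baseline hearts, genotypes averaged. There, 0 of 9 members were called by limma, against 6.54% of all genes. At an unadjusted p under 0.05, 1 member passed, Pgam1, with a log2 fold change of 0.50 (SE 0.15, adjusted p = 0.0704, limma). Pgam1 had 378 and 339 normalized counts in the PKM2fl/fl and 252 and 330 in the PKM2-/- baseline hearts. The baseline values overlapped the sham values in PKM2fl/fl hearts and lay below all 3 sham values in PKM2-/- hearts. DESeq2 called it (log2 fold change 0.51, adjusted p = 0.0275), and so did limma without the second PKM2-/- sham heart (0.60, adjusted p = 0.0244). In the same comparison, 8 of 8 leukocyte markers (median log2 fold change 0.91), 4 of 6 fibroblast markers (median 0.81) and 3 of 4 atrial markers (median 2.14) rose, while 0 of 8 cardiomyocyte markers were called by limma (0 also at an unadjusted p under 0.05, median -0.0043). Their part in the Pgam1 value was not tested. The other 8 members had log2 fold changes between -0.07 and 0.23.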

How the data were processed

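Left ventricular RNA of 16 mice was depleted of ribosomal RNA and sequenced. As the paper's methods and the submitters' notes state, the authors used HISAT2 for alignment (mm10), featureCounts for counting and DESeq2 for normalization; strand and multi-mapping settings are not given in the sources used here. The deposited values are a normalized signal per gene and heart, that is, reads over the DESeq2 size factor. Their log2 fold change, its standard error, Wald score and p-value columns, also deposited, were not used. Sample labels gave the groups, and every column of values matched a sample.

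In each library the deposited values were whole multiples of 1 step (100% of values within 0.01 of a whole read), so reads could be recovered. limma 3.58.1 (limma-trend, R 4.3.3) was fitted to log2(value + 1) for all libraries in 6 groups, over 20576 genes with a mean of at least 10. Genes were called at a Benjamini-Hochberg adjusted p under 0.05. Fold changes are on that scale, which understates the change of low genes. Isoform shares were tested on recovered reads by exact permutation and adjusted over 6 tests. Positions and promoters are from RefSeq on GRCm38.p6, transcript lengths from GENCODE M39. Near-identical copies were found with BLAST 2.17.0 (at least 95% identity over 300 bases).

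The members and lists were chosen with earlier results of these data known. Named genes are the 10 members, Pkm and at most 3 genes of each list with the smallest adjusted p among those called after MI, and Dbnl, which overlaps Pgam2 and was added after its values were seen. A gene that this rule names is not reported here. Each library was its own mouse, and libraries with the same replicate number did not deviate together (median correlation -0.027 over 36 pairs, from -0.20 to 0.13), so the numbers do not pair samples. Alternatives were edgeR 4.0.16 and DESeq2 1.42.0 on recovered reads, total read scaling, a pseudocount of 0.1, no filter, only the compared groups, a replicate block and each library left out. The fit was tested on simulated data.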

Additional observations from a re-analysis of the deposited data

How the results depend on the processing

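Scaling to total reads moved the median of all genes by up to 0.68 on the log2 scale. It called 5 members in MI against sham in PKM2-/- hearts, where 44.3% of all genes were called. It turned Gpi1 there to 0.016 and Pgk1 in PKM2fl/fl hearts to -0.10, and in PKM2-/- against PKM2fl/fl after MI it turned Pgam2 to 0.14 and Eno3 to 0.14. Leaving out 1 library gave Eno3 values of -0.72 to 0.065 in that comparison, without the third and without the second PKM2fl/fl MI heart. Scaling to total reads without loci related to ribosomal RNA, added after seeing the data, called 6 members after MI in each genotype. Gpi1 was then no longer called in PKM2fl/fl or PKM2-/- hearts (adjusted p = 0.0954 and 0.386, limma). In PKM2-/- hearts, Tpi1 and Gapdh were no longer called either (adjusted p = 0.146 and 0.228, limma). Pgk1 was called higher there (log2 fold change 0.61, adjusted p = 0.00153, limma). Of all genes, this scaling called 44.8% in PKM2fl/fl and 57.3% in PKM2-/- hearts (41.3% higher and 16.1% lower in the latter). In sham against baseline, 1 member (Pgam1) was called with DESeq2 and 1 with that added scaling, where 9.3% and 4.87% of all genes were. Leaving out 1 library gave 0 to 3 members called in PKM2-/- against PKM2fl/fl after MI and 0 to 1 in sham against baseline. Of all genes, 0.0535% to 11.0% and 3.34% to 7.37% were called in these comparisons. The genotype differences in share were then -5.57 to -0.42 percentage points for Pgam2, -7.23 to -0.89 for Eno3 and -0.0048 to 0.020 for Aldoc, and as a log2 ratio the last was -0.27. The cause was not tested. With no filter on low values, Aldoc was called in MI against sham (2.43, adjusted p = 0.0155 in PKM2fl/fl and 3.03, adjusted p = 0.00284 in PKM2-/-, limma). With the replicate block, 7 and 8 members were called after MI in PKM2fl/fl and PKM2-/- hearts, where 48.9% and 55.5% of all genes were. No call of a member changed, and the labels do not say that the replicate numbers pair the samples. With 2 or 3 hearts per group, p-values rest on a spread shared by all groups, and Aldoc is limited by its depth.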
